A study of Mus musculus with 28 samples.

Results

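Hox genes code for homeodomain transcription factors that give cells of the vertebrate body their position along the head-to-tail axis. In mouse they lie in 4 clusters, HoxA to HoxD, which arose by duplication, so that genes with the same number in different clusters are paralogs. Low-numbered genes sit at the 3′ end of a cluster and are used towards the head, and high-numbered genes sit at the 5′ end and are used towards the tail, in limbs and in the urogenital tract. Polycomb complexes keep unused parts of a cluster silent, trithorax proteins and retinoic acid signalling counteract this, and adult cells, those of the kidney among them, largely retain the pattern of the tissue they came from.

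The expression of the 39 Hox genes of these clusters was analysed, out of 45706 genes listed. They are all the genes whose symbol is Hox, a cluster letter from a to d and a number, a rule that uses names and no measured value. HoxA contributes 11 genes on chromosome 6 (minus strand), HoxB 10 genes on chr11:96194316-96368256 (plus strand), HoxC 9 genes on chr15:102921103-103036852 (plus strand) and HoxD 9 genes on chr2:74668310-74765142 (plus strand), all on GRCm38 with GENCODE M21 gene models.

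RNA was sequenced from 28 libraries of mIMCD-3, an established mouse kidney epithelial line that stems from the collecting ducts of the inner medulla. There were 7 groups of 4 libraries: polyclonal wild-type cells, the parental pool; WT5, a monoclonal wild-type line grown from 1 sorted cell of that pool; and subclones 1 to 5, each grown from 1 sorted cell of WT5. All were wild-type and untreated, were grown in DMEM:F12 medium with serum and gave RNA 4 days after reaching confluency. The study asked whether differences among wild-type cells contribute to the variability of genome-edited clones. RNA sequencing of these unedited cells was part of its evidence.

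WT5 is 1 clone, and each subclone is 1 clone, so the libraries of a group are repeats of that clone. The study calls them biological replicates in one place and technical replicates in another, and p-values here measure only the spread between them. Polyclonal cells were sequenced with shorter single-end reads and WT5 with longer paired-end reads at another time, so cell line and sequencing batch cannot be told apart. WT5 and the subclones stand in separate tables, so where every subclone departs from WT5 alike, line and table cannot be told apart. Values are TPM, transcript abundances scaled for transcript length that sum to 1000000 in each library. How many reads stand behind a TPM value is unknown, and the lowest value above 0 is 0.01 TPM. In bulk RNA, fewer expressing cells and less RNA per cell cannot be told apart.

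Of 14 collecting duct and epithelial markers, 12 averaged at least 1 TPM in polyclonal cells and 9 in WT5 and in each subclone. Krt8, a keratin of simple epithelia, was high throughout, but Aqp2, the water channel of principal cells, was 0 in every library. Gata3 averaged 4.08 TPM in polyclonal cells and 0.04 in WT5, and Avpr2, the vasopressin receptor, 10.6 and 0.06. Summed TPM was at most 0.04 for the podocyte markers and 0.29 for the endothelial markers in any library, and at most 10.1 for the proximal tubule and 13.3 for the thick ascending limb. Blood markers summed to between 1.52 and 79.78 and stromal markers to between 43.0 and 100.44. Foxd1 made up most of the stromal sum, with means of 44.6 TPM in polyclonal cells and 95.7 in WT5. The other stromal markers averaged below 1 TPM in every group. The highest blood sum was mostly Hbb-bs, which reached 77.48 TPM in polyclonal cells and was 0 in all WT5 and subclone libraries. The part of these markers in the Hox results was not tested.

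The promoters of 4 genes are shown because the results below turn on them: Hoxc4, which was lower in WT5 and almost lost in subclone 1, and Hoxa2, Hoxd4 and Hoxd9, which were higher in WT5. Each runs 5′ to 3′ over 300 bases around the RefSeq transcription start on GRCm38.p6, and capitals mark CpG dinucleotides, the bases that carry DNA methylation. RefSeq promoters were at hand for 22 of the 39 genes.
Hoxc4, chr15:103034145-103034444, plus strand: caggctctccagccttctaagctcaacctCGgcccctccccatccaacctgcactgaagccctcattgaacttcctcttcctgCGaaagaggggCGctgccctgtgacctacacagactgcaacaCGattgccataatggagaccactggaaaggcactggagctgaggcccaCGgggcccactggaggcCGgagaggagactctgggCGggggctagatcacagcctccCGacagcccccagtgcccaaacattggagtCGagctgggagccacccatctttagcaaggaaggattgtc
Hoxa2, chr6:52164782-52165081, minus strand: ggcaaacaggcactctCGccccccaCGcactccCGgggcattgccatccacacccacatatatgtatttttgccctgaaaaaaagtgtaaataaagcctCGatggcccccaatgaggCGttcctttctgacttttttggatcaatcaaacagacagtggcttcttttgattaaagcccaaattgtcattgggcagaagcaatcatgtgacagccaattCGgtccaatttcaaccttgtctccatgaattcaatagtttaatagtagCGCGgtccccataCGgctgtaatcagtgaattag
Hoxd4, chr2:74721728-74722027, plus strand: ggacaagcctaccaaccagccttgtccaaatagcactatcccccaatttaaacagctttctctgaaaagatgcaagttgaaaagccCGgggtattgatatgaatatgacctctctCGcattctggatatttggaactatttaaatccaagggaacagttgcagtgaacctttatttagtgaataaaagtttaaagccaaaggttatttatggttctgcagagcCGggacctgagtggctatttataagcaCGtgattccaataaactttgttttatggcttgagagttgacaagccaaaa
Hoxd9, chr2:74697513-74697812, plus strand: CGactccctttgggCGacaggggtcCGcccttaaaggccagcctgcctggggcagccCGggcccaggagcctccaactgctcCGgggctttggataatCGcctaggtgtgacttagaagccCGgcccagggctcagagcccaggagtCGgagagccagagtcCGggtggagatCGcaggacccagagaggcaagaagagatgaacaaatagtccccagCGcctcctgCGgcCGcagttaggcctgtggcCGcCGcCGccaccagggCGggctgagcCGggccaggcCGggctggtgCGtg
These windows held 9, 9, 4 and 20 CpG, against a median of 7 over all 32851 promoters of that table, with quartiles of 3 and 20. The promoter of Hoxd9 was therefore at the upper quartile and the other 3 lay between the quartiles. The Pbx-Hox motif TGATTNAT, searched on both strands, occurred once in the Hoxa2 window and in 3.2% of all promoters. The nuclear receptor motif AGGTCA occurred once each in the Hoxc4 and Hoxd4 windows and in 16.3% of all promoters, and the homeodomain motif TAATTA occurred in none of the 4 and in 5.3% of all. Matches of each motif were counted on their own, and a match describes letters, not binding. The Hoxc4 and Hoxd4 windows lie inside the annotated spans of those genes, which also hold transcripts that start further upstream.

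The clusters were used very unequally. Over the 28 libraries, 10 of 11 HoxA genes and 9 of 10 HoxB genes averaged at least 1 TPM, against 1 of 9 HoxC genes, Hoxc4, and 3 of 9 HoxD genes, Hoxd4, Hoxd8 and Hoxd9. Hoxc11, Hoxc12, Hoxd1, Hoxd11 and Hoxd12 were 0 in every library, 24 genes were above 0 in every library, and for 10 genes every group averaged below 0.1 TPM. The highest genes were Hoxb9 with a mean of 218 TPM and Hoxa10 with 105.

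Along HoxA, mean TPM over all libraries was between 3.48 and 14.2 from Hoxa2 to Hoxa6, 45 at Hoxa7, 74.9 at Hoxa9 and 105 at Hoxa10, and dropped to 8.49 at Hoxa11 and 0.318 at Hoxa13. HoxB ran from near 0 at Hoxb1, a gene of the hindbrain, over 29.5 at Hoxb2, 9.15 at Hoxb4 and 57.1 at Hoxb7 to 218 at Hoxb9. Hoxb13, set apart from the rest of its cluster and known from prostate and tail bud, still averaged 10.5 TPM. HoxD was a narrow block, with Hoxd8 at 15.3 TPM between Hoxd4 at 2.83 and Hoxd9 at 5.29, and its other genes at or near 0. Among the latter, Hoxd3 shares most of its sequence with other gene models, so its value is uncertain. 

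**Figure D1:**
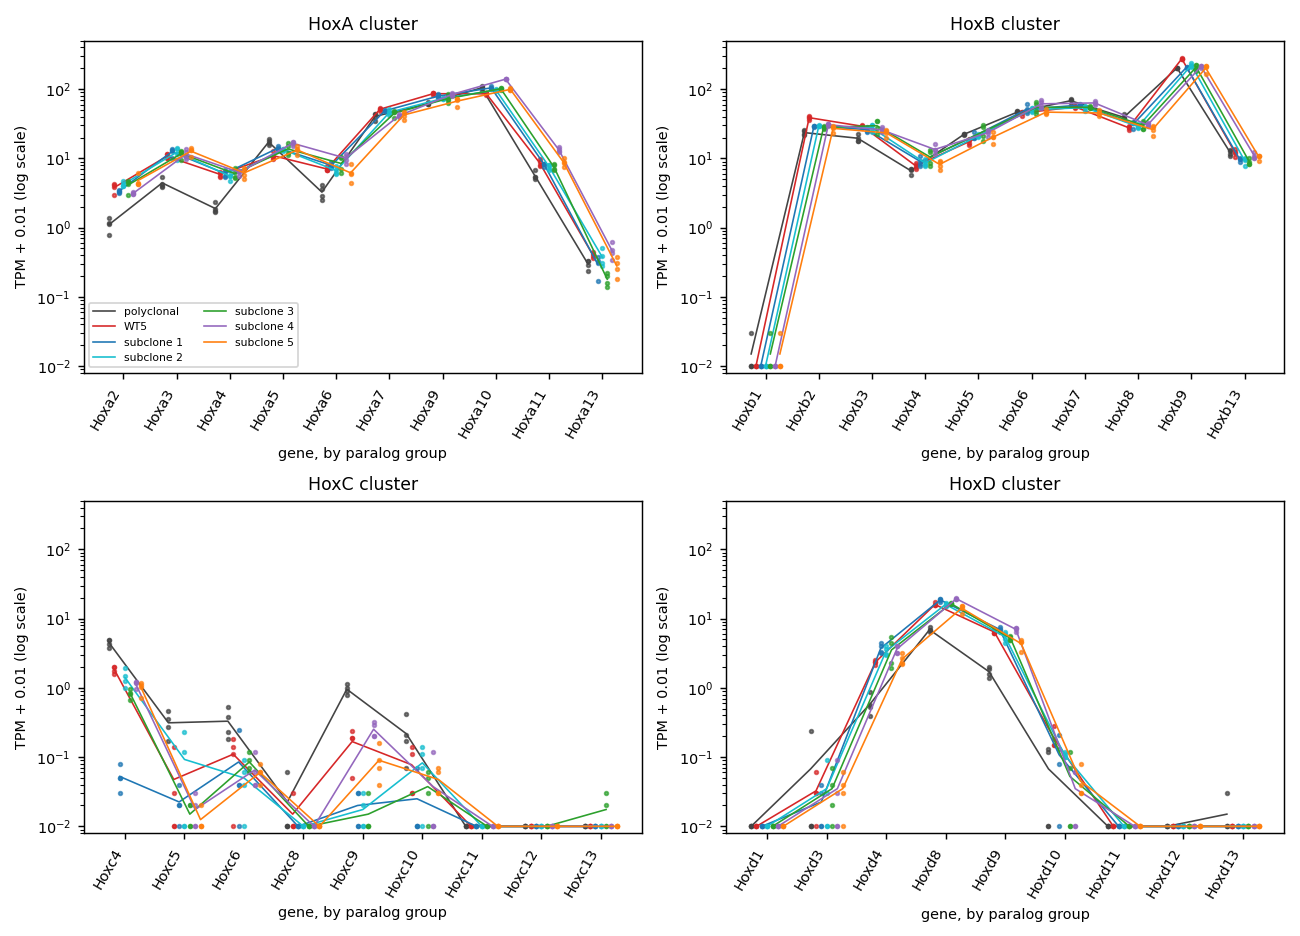
TPM + 0.01 on a log axis for the Hox genes described, in 4 panels, 1 per cluster, by gene number; points are single libraries and lines join the means of the 7 groups. Averaged over all libraries, HoxA and HoxB peak at Hoxa10 and Hoxb9, while in WT5 alone Hoxa9 and Hoxa10 are level at 85.9 and 85.6 TPM. HoxC averages above 1 TPM only at Hoxc4, which is near the floor in subclone 1. HoxD averages above 1 TPM only at Hoxd4, Hoxd8 and Hoxd9, and Hoxd4 stays below 1 in polyclonal cells.

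The first comparison asked how the Hox genes of the WT5 clone differ from those of the pool it was sorted from. Hoxc4 and Hoxc9 were lower in WT5, the 3 expressed HoxD genes were higher, HoxA changed most at its 3′ genes, and no HoxB gene differed by more than 1 on the log2 scale. In all, 26 Hox genes had TPM above 0 in all 8 libraries and were tested, and the other 13 were not. With the study's thresholds, an adjusted p below 0.01 and a difference above 1 in z-scored log2(TPM), which equals a ratio of about 8.56, limma called 1 Hox gene, Hoxc9 (lower), against 5.43% of all 13723 genes tested. The unequal-variance test, the kind the study used, called 0 (Hoxc9 adjusted p = 0.0187). By adjusted p alone, 20 of the 26 passed, 12 of them higher and 8 lower, but so did 65.5% of all genes, 34.5% higher and 30.9% lower. Groups that do not overlap, given for single genes below, were found for 72.3% of all genes.

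Over all genes tested the median log2 difference was itself 0.24. Differences in log2(TPM) are therefore given after the median of each library was subtracted, which took 0.29 off every gene, and are called corrected. On this scale 7 Hox genes passed an adjusted p below 0.01 with a difference above 1, against 23.2% of all genes. Hoxa2, Hoxa4, Hoxd4 and Hoxd9 were among those that rose, as did 11.3% of all genes, and Hoxc4 and Hoxc9 fell, as did 12%. That is 26.9% of those tested, near the share over all genes. Without the correction there were 10 calls, Hoxa3, Hoxa6 and Hoxd8 being added, against 25.5% of all genes.

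**Figure D2:**
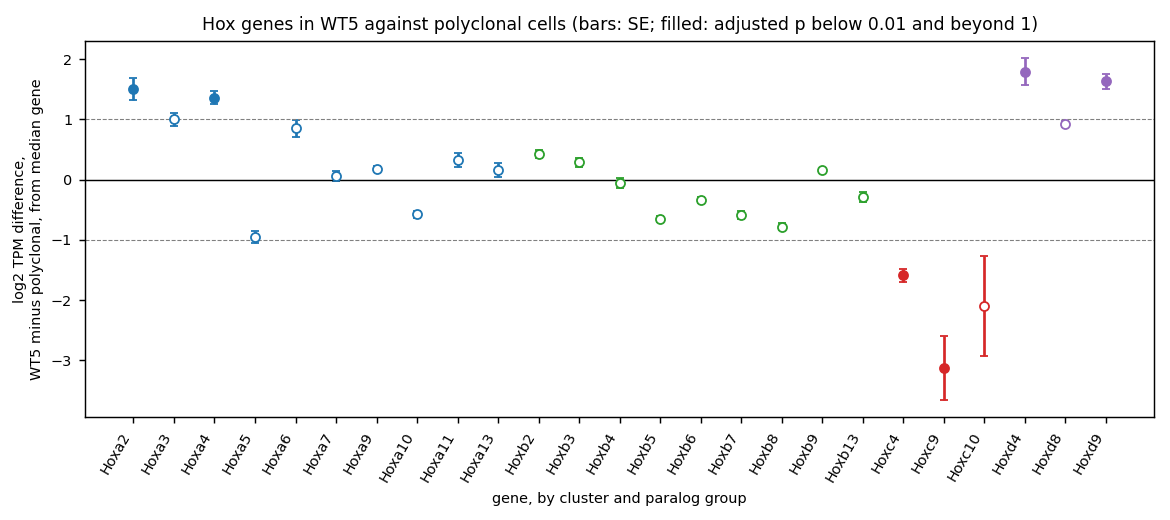
Difference in log2(TPM), WT5 minus polyclonal, after subtraction of each library's median, for the Hox genes described, in order of cluster (colours) and gene number; bars are standard errors over 4 libraries per group. Filled points, at Hoxa2, Hoxa4, Hoxc4, Hoxc9, Hoxd4 and Hoxd9, have an adjusted p below 0.01 and lie beyond the dashed lines at 1 and -1.

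In HoxA, the genes from Hoxa2 to Hoxa4 stood out. Hoxa2 shares 15.0% and Hoxa3 8.0% of its exon bases with Gm28308, a gene model on the same strand. The split of reads between them is thus uncertain. Gene models on the opposite strand cover 25.4% of the exon bases of Hoxa3 and 16.0% of those of Hoxa4. Hoxa2, which selects the identity of the second pharyngeal arch, was at 1.36, 0.77, 1.1 and 1.15 TPM in polyclonal cells and 4.05, 4.23, 3.8 and 2.92 in WT5. Every WT5 library was above every polyclonal library, and on the corrected log2 scale Hoxa2 rose by 1.501 ± 0.19 (SE; adjusted p = 0.0001647, limma).

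Hoxa4 was at 1.66, 2.3, 1.83 and 1.71 TPM in polyclonal cells and 5.54, 6.37, 6.1 and 5.43 in WT5, a rise of 1.36 ± 0.11 (SE; adjusted p = 1.609e-05). Hoxa3, a gene of pharyngeal organs, was at 5.45, 4.02, 4.28 and 3.91 TPM against 10.03, 11.51, 11.37 and 9.96. Neither gene overlapped between the groups. The corrected log2 difference of Hoxa3, 0.9988, lay just inside the limit of 1, and those of Hoxa6, 0.85 ± 0.15, and Hoxa5, -0.95 ± 0.10 (SE), did as well. Hoxa6 was at 3.62, 2.46, 4.05 and 2.86 TPM in polyclonal cells and 6.9, 6.74, 6.69 and 7.81 in WT5, again without overlap.

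Hoxa5 went the other way from both of its neighbours, with means of 17.2 TPM in polyclonal cells and 10.9 in WT5. The 5′ genes of HoxA, which dominate the cluster, changed less. Hoxa10, required in the urogenital tract, was at 111.54, 107.9, 103.28 and 95.26 TPM in polyclonal cells and 86.94, 86.51, 86.85 and 81.95 in WT5, so that every WT5 library was lower. Its corrected log2 difference was -0.58 ± 0.06 (SE; adjusted p = 5.891e-05). Hoxa13, the gene of the cluster's 5′ end, was at 0.32, 0.28, 0.32 and 0.23 TPM against 0.4, 0.35, 0.44 and 0.38. Its WT5 libraries were all higher, yet the corrected difference of 0.17 ± 0.12 did not pass (adjusted p = 0.2285). The annotation places an antisense transcript, Hoxa11os, over 35.0% of the exon bases of Hoxa11, and whether reads were counted by strand is not given in the sources used here.

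In HoxB, no gene reached a corrected log2 difference of 1, and 9 genes were tested. By adjusted p on the z-scores, Hoxb2, Hoxb3 and Hoxb9 rose and Hoxb5, Hoxb6, Hoxb7 and Hoxb8 fell. For Hoxb6 the call rested on the scaling, since its uncorrected log2 difference was -0.05 and its libraries overlapped. The corrected differences ran from -0.79 ± 0.06 (SE) at Hoxb8 to 0.43 ± 0.06 at Hoxb2. Hoxb9, the most abundant Hox gene, was at 199.87, 201.73, 204.26 and 202.67 TPM in polyclonal cells and 269.36, 275.56, 280.95 and 273.07 in WT5. The groups were far apart compared with their spread, but the corrected rise was only 0.15 ± 0.03 (SE; adjusted p = 0.002711). Hoxb3 shares 52.9% and Hoxb2 27.3% of their exon bases with Hoxb3os on the other strand.

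In HoxC, the 3 genes tested were all lower in WT5, and Hoxc4 and Hoxc9 passed. Fewer genes of any kind were detected in WT5, with 16318 to 16536 above 0 TPM per library against 18681 to 19272 in polyclonal cells. The part of that difference in the low HoxC values was not tested. Hoxc4 (chr15:103018934-103036852), the gene at its 3′ end, was at 3.81, 4.92, 4.97 and 4.24 TPM in polyclonal cells and 1.74, 2.01, 1.97 and 1.58 in WT5. The groups did not overlap, and the corrected log2 difference was -1.59 ± 0.11 (SE; adjusted p = 5.136e-06, limma). Hoxc9 (chr15:102976439-102985099), a gene of the thoracic code, was at 1.14, 0.98, 0.78 and 0.88 TPM in polyclonal cells and 0.18, 0.04, 0.23 and 0.18 in WT5. It fell by 3.12 ± 0.53 (SE; adjusted p = 0.001006) on that scale.

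The call of Hoxc9 by z-scores, with a difference of -1.002, sat on its limit. It was lost with polyclonal replicate 1, polyclonal replicate 2 or WT5 replicate 2 left out, the z-score difference then being -0.9674, -0.9842 and -0.7816. The other HoxC genes were too low for the test or did not pass it. Hoxc5 was at 0.34, 0.45, 0.16 and 0.26 TPM in polyclonal cells and 0, 0.02, 0 and 0.13 in WT5, without overlap. In a fit of log2(TPM + 0.1), which takes in genes at 0 in some libraries, Hoxc5 was lower by -1.59 ± 0.33 (SE; adjusted p = 0.004151), but not by z-scores there (adjusted p = 0.02007), with 24.5% of all genes called on the log2 scale. For Hoxc10 the corrected difference was -2.10 ± 0.83 (SE; adjusted p = 0.04926), with overlapping libraries.

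The 3 HoxD genes tested were all higher in WT5, the opposite direction to the 3 HoxC genes tested. With 3 genes in each, and Hox calls near the share over all genes, this is not read as a movement of whole clusters. Hoxd4 was at 0.38, 0.85, 0.55 and 0.52 TPM in polyclonal cells and 2.39, 2.49, 2.13 and 2.36 in WT5, and rose by 1.80 ± 0.23 (SE; adjusted p = 0.0001799). Hoxd8 was at 6.79, 6.36, 7.64 and 6.81 TPM against 15.66, 15.56, 17.07 and 15.52. Hoxd9, which acts with its neighbours in the limb and the lumbar spine, was at 1.38, 1.85, 1.98 and 1.59 TPM against 6.21, 6.1, 6.13 and 7.1. All WT5 libraries of the 3 genes lay above all polyclonal libraries.

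The corrected rise was 1.63 ± 0.12 (SE; adjusted p = 7.411e-06) for Hoxd9 and 0.92 ± 0.05 (SE; adjusted p = 2.158e-06) for Hoxd8, which stayed under the limit of 1. Of the 50-base stretches of the longest Hoxd4 transcript, 42.2% also occur in Gm28230, an overlapping gene model that joins Hoxd3 and Hoxd4, so the split of reads between them is uncertain. Hoxd8 and Hoxd9 share no stretch with another gene and overlap none. Hoxd10 was at 0.11, 0, 0.12 and 0 TPM in polyclonal cells and 0.14, 0.27, 0.17 and 0.14 in WT5, and the other 5 HoxD genes stayed at or near 0. For Hoxd3 that value is uncertain, since 86.2% of its 50-base stretches also occur in Gm28230 or Hoxd4.

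Among the paralogs given here, tested genes moved apart in groups 4, 8 and 9 and alike in groups 2 and 3 and for Hoxa5 and Hoxb5. Whether paralogs move together was not tested. In group 4, Hoxa4 and Hoxd4 rose, Hoxc4 fell, and Hoxb4 did not pass, with a log2 difference of 0.24 ± 0.09 (SE) that the correction turned to -0.05 ± 0.08. In group 9, Hoxd9 rose and Hoxc9 fell beyond 1, while those of Hoxa9 and Hoxb9 were 0.18 and 0.15. In group 8, Hoxb8 was lower at -0.79 and Hoxd8 higher at 0.92. Hoxa5 and Hoxb5 both fell, by 0.95 and 0.66. The group 2 and 3 genes, Hoxa2, Hoxb2, Hoxa3 and Hoxb3, all rose by adjusted p, from 0.29 at Hoxb3 to 1.501 at Hoxa2.

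The second comparison set each subclone against WT5, its parent. In all 5, most Hox genes stayed within a log2 difference of 1, and Hoxc4 was the main exception. Of 24 Hox genes tested among 13860 genes, the z-score criterion called 1 in subclone 1, Hoxc4 (lower), against 0.152% of all genes. It called 0 in subclones 2 to 5, where 0.144%, 0.173%, 0.202% and 0.173% of all genes were called. In those 4 comparisons limma gave an unadjusted p below 0.05 for 11, 14, 18 and 14 Hox genes. The share of all genes at that cutoff was not computed, so these counts are not read as a Hox result. By adjusted p alone 26%, 19.5%, 37.3% and 21.9% of all genes passed there. The unequal-variance test also called 0 Hox genes. With a log2 difference above 1 in place of the z-score, the counts were 1 in subclone 1 (3.17% of all genes), 2 in subclone 3 (3.61%) and 0 in the others (2.69%, 5.14% and 3.45%). The comparisons share the 4 WT5 libraries.

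Hoxc4 was at 0.02, 0.04, 0.04 and 0.07 TPM in subclone 1, compared with 1.74, 2.01, 1.97 and 1.58 in WT5. In subclone 2 it was at 1.24, 0.98, 1.45 and 1.91 TPM, in subclone 3 at 0.66, 0.81, 0.95 and 0.83, in subclone 4 at 0.96, 1.17, 1.19 and 1.19, and in subclone 5 at 0.71, 1.18, 1.02 and 1.09. Every library of subclone 1 was thus below every other library, the nearest being at 0.66, and close to the lowest value that the table can hold. In subclones 3, 4 and 5 every library was below every WT5 library, while subclone 2 overlapped WT5.

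Against WT5, Hoxc4 was lower in subclone 1 by -5.55 ± 0.34 on the log2 scale (SE; adjusted p = 5.342e-05), or -1.858 in z-score. It fell by 1.17 ± 0.13 in subclone 3 (adjusted p = 0.0005819), by 0.89 ± 0.16 in subclone 5 (adjusted p = 0.005485) and by 0.69 ± 0.10 in subclone 4 (adjusted p = 0.001038). The difference of subclone 2, -0.42 ± 0.19, did not pass (adjusted p = 0.1222). With a pseudocount of 1 or 0.1, which shrinks low values, the z-score difference of subclone 1 was -0.6219 or -0.9412 and no longer a call, although its adjusted p was 7.098e-07 and 5.778e-06. Hoxc4 overlaps no other gene and shares no 50-base stretch with one.

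Hoxc9, the other HoxC gene that had been lower in WT5, was at 0, 0, 0.02 and 0.02 TPM in subclone 1, at 0.01, 0, 0.02 and 0 in subclone 2 and at 0, 0, 0 and 0.02 in subclone 3. In subclone 4 it was at 0.31, 0.19, 0.19 and 0.28 TPM, and in subclone 5 at 0.03, 0.08, 0.06 and 0.15. Every library of subclone 4 was above every library of subclones 1, 2, 3 and 5. Because of its zeros it entered only the fit of log2(TPM + 0.1), where the means of the 5 subclones spanned 1.69 (adjusted p = 1.263e-06, moderated F test of limma).

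**Figure D3:**
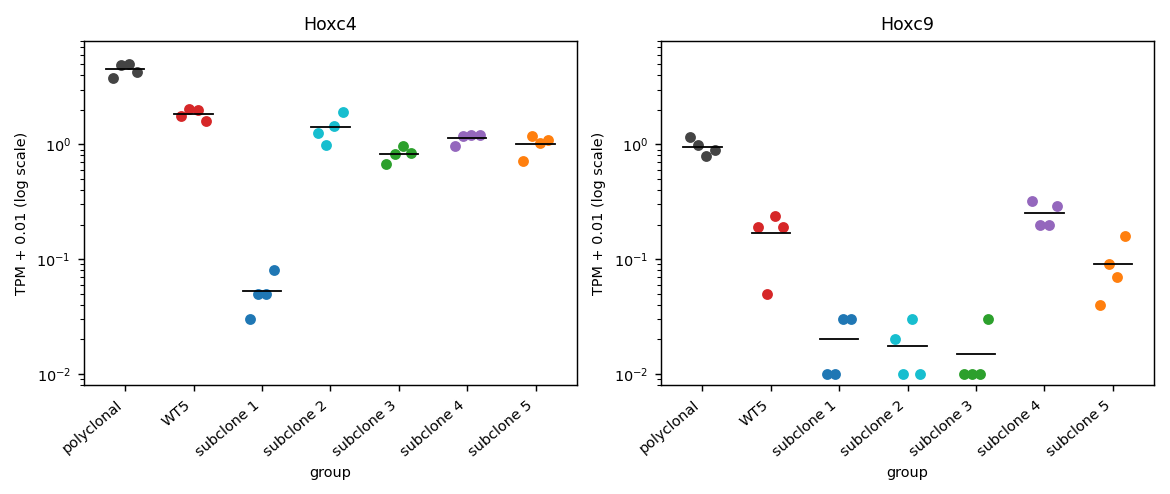
TPM + 0.01 on a log axis for Hoxc4 (left) and Hoxc9 (right) in each library of the 7 groups; points are libraries and black lines group means. For Hoxc4 the 4 libraries of subclone 1 lie between 0.02 and 0.07 TPM, apart from all others, while for Hoxc9 subclones 1, 2 and 3 lie at 0 to 0.02 TPM and subclone 4 at 0.19 to 0.31.

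Several Hox genes differed from WT5 in the same direction in all subclones. Hoxa10 was higher in every library of every subclone than in any WT5 library and passed by adjusted p on the z-scores in all 5, with log2 differences from 0.18 in subclone 2 to 0.71 in subclone 4. Hoxb2 was lower without overlap in all 5, by 0.34 to 0.52 on the log2 scale in size. Hoxb9 was also lower without overlap in all 5, by 0.31 to 0.45 in size, passing on the z-scores in subclones 1, 2 and 4. In each of these comparisons groups that do not overlap were common, at 42.1%, 39.5%, 37.4%, 50.5% and 38.4% of all genes in subclones 1 to 5. As said of the tables, such a shared difference cannot be told apart from one between them.

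By adjusted p alone, 8, 4, 5, 15 and 5 of the 24 Hox genes passed in subclones 1 to 5, against 26.3%, 26%, 19.5%, 37.3% and 21.9% of all genes. Subclone 4 stood out with 15, of which 10 were higher, against 18.2% of all genes higher there. Hoxa13 was lower in subclone 3, at 0.15, 0.21, 0.13 and 0.19 TPM against 0.4, 0.35, 0.44 and 0.38 in WT5, a log2 difference of -1.23 (adjusted p = 0.001178), again without overlap. It was at 0.3, 0.16, 0.32 and 0.37 TPM in subclone 1, at 0.27, 0.3, 0.38 and 0.5 in subclone 2, at 0.47, 0.61, 0.42 and 0.33 in subclone 4 and at 0.3, 0.24, 0.37 and 0.17 in subclone 5. These groups overlapped WT5.

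The third comparison stayed within the 20 subclone libraries and so without the question of tables. Of 24 Hox genes tested among 14031 genes, the moderated F test called 1, Hoxc4, with a range of 1.662 between the highest and lowest mean z-score (adjusted p = 6.258e-10), against 0.613% of all genes. On the log2 scale Hoxc4, with a range of 5.13, and Hoxa13, with 1.42, were called, against 5.4% of all genes. The call of Hoxa13 was lost with the correction by library medians (adjusted p = 0.01472). By adjusted p alone 10 Hox genes differed, against 24.6% of all genes: Hoxa2, Hoxa6, Hoxa9, Hoxa10 and Hoxa11, Hoxb4 and Hoxb7, Hoxc4, and Hoxd8 and Hoxd9. The 14 others did not pass. Set against the mean of the other 4, subclone 1 was called for Hoxc4 at -1.535 in z-score and -4.76 ± 0.22 on the log2 scale (SE; adjusted p = 1.878e-10), where 0.0713% of all genes were called. The z-score call was lost with the unequal-variance test (adjusted p = 0.01535) and with a pseudocount of 1 or 0.1, at -0.4222 or -0.7587. The positive log2 differences of Hoxc4 in subclones 2, 4 and 5, at 1.65, 1.32 and 1.07, are taken against a mean that holds subclone 1. Each was past 1 with an adjusted p below 0.01, a rule that called 0.891%, 0.898%, 0.891%, 1.79% and 1.36% of all genes in subclones 1 to 5.

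Subclone 4 had the most Hox differences against the other 4 subclones. By adjusted p, 11 of 24 passed, 10 of them higher, against 18.4% of all genes, 8.62% higher. The counts were 2, 3, 1 and 5 in subclones 1, 2, 3 and 5, against 4.36%, 5.95%, 4.85% and 14.5%. The z-score criterion called 0 in subclones 2 to 5 with either test, and 0.057%, 0.0356%, 0.114% and 0.057% of all genes. An unadjusted p below 0.05 was given by limma for 6, 5, 17 and 15 Hox genes there. Here too the share of all genes at that cutoff was not computed. In HoxA, Hoxa2 was lower by -0.38 ± 0.10 on the log2 scale (SE), the values of Hoxa3 and Hoxa4, which did not pass, were -0.09 and 0.09, and Hoxa5, Hoxa6, Hoxa9, Hoxa10 and Hoxa11 rose by 0.29, 0.48, 0.21, 0.47 and 0.75. Hoxa7, at -0.13, did not pass, and neither did Hoxa13 at 0.81 ± 0.23, whose adjusted p on the z-scores was 0.03901.

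Hoxa10 and Hoxa11 carried that difference most cleanly. Hoxa10 was at 140.78, 140.43, 138.48 and 138.23 TPM in subclone 4. It was at 103.95, 102.79, 99.29 and 111.21 TPM in subclone 1, at 100.56, 93.73, 96.6 and 97.01 in subclone 2, at 96.54, 101.8, 104.91 and 102.35 in subclone 3, and at 98.53, 98.96, 104.4 and 95.73 in subclone 5. No library of another subclone came near, and the log2 difference was 0.47 ± 0.04 (SE; adjusted p = 3.855e-08).

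Hoxa11, needed for the ureteric bud and the kidney together with its paralogs, was at 12.91, 14.62, 13.46 and 12.36 TPM in subclone 4 and at 6.76 to 10.09 in the other 16 subclone libraries. This also left no overlap, with a log2 difference of 0.75 ± 0.07 (SE; adjusted p = 5.29e-07). Hoxa11os, on the opposite strand over part of Hoxa11, averaged 12 TPM in subclone 4 and 7.28 to 7.62 in the others. Without overlap of the 4 libraries of subclone 4 with the other 16 were 6.88% of all genes.

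Hoxa6 was at 8.31, 10.9, 9.33 and 11.67 TPM in subclone 4, at 7.42, 8.95, 7.17 and 8.11 in subclone 1, at 6.14, 5.93, 6.87 and 7.67 in subclone 2, at 10.39, 6.24, 7.05 and 10.08 in subclone 3 and at 4.4, 8.37, 5.86 and 6.06 in subclone 5. Subclone 4 overlapped subclones 1, 3 and 5. In HoxB, Hoxb4 averaged 13.5 ± 1.75 TPM (SD, n = 4) in subclone 4 and 8.18 to 10.5 in the others, and Hoxb7 63.2 ± 2.82 in subclone 4 and 45.3 ± 3.81 in subclone 5, its lowest. The mean of Hoxa2, the 1 lower call in subclone 4, was lowest there, at 3.21, 3.02, 3.03 and 3.12 TPM, and highest in subclone 5, at 4.26, 6.07, 4.42 and 4.27. It was at 3.17, 3.21, 3.51 and 3.36 TPM in subclone 1, at 4.03, 4.22, 4.64 and 3.98 in subclone 2, and at 4.54, 2.96, 4.22 and 4.74 in subclone 3.

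**Figure D4:**
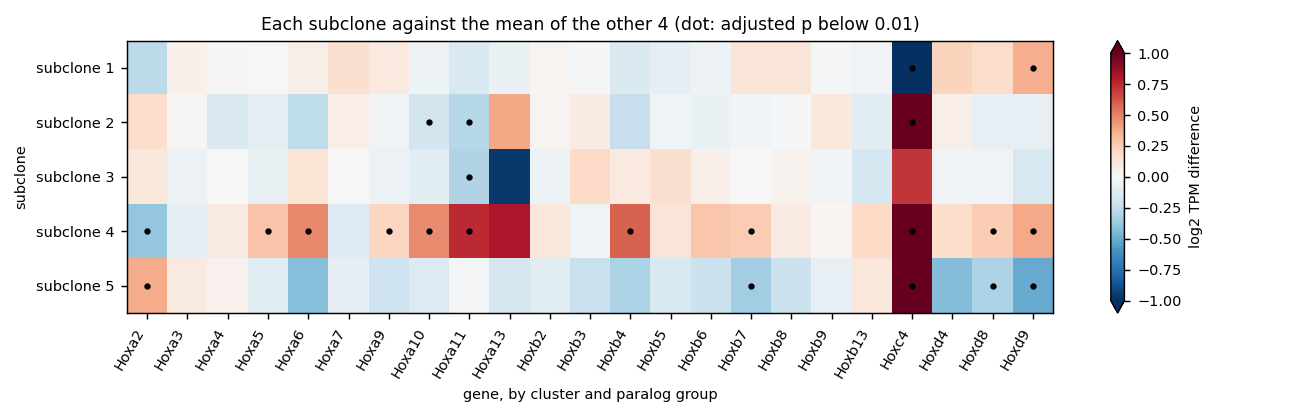
Difference in log2(TPM) of each subclone (rows) from the mean of the other 4 for the Hox genes described (columns, by cluster and gene number); red is higher, blue lower, the colour scale ends at 1 and -1, and dots mark an adjusted p below 0.01. Subclone 4 has dots at 5 higher HoxA genes from Hoxa5 to Hoxa11 and a lower Hoxa2, and the Hoxc4 column is dark blue in subclone 1.

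Hoxa3 was at 13.04, 12.91, 10.04 and 13.84 TPM in subclone 1, at 13.68, 11.62, 9.6 and 14.01 in subclone 2, at 12.37, 9.6, 12.3 and 12.59 in subclone 3, at 9.93, 13.65, 10.33 and 12.18 in subclone 4 and at 10.32, 13.98, 13.33 and 13.23 in subclone 5. Hoxa4 was at 6.85, 5.42, 6.29 and 5.62 TPM in subclone 1, at 6.47, 4.68, 5.47 and 5.59 in subclone 2, at 7.18, 5.41, 5.23 and 6.28 in subclone 3, at 5.56, 6.66, 6.33 and 6.63 in subclone 4 and at 5.05, 7.23, 5.68 and 6.74 in subclone 5. Both overlapped between all subclones, and neither passed. Hoxb9 was at 211.15, 204.63, 202.36 and 211.25 TPM in subclone 1, at 240.34, 207.76, 215.99 and 224.86 in subclone 2, at 224.94, 181.8, 201.4 and 222.51 in subclone 3, at 200.31, 217.65, 217.97 and 214.06 in subclone 4 and at 166.39, 218.84, 208.31 and 212.91 in subclone 5, and this most abundant Hox gene did not pass either, its highest and lowest subclone means differing by a ratio of 1.1.

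In HoxD, subclones 1 and 4 were the highest and subclone 5 the lowest. Hoxd9 was at 7.49, 6.4, 6.92 and 7 TPM in subclone 1, 6.3, 7.37, 7.36 and 6.97 in subclone 4 and 3.31, 4.56, 4.57 and 4.92 in subclone 5. Between them were subclone 2, at 6.02, 4.38, 5.1 and 6.4, and subclone 3, at 4.92, 4.88, 5.38 and 5.63. Against the other 4, Hoxd9 fell by 0.50 ± 0.10 on the log2 scale in subclone 5 (SE; adjusted p = 0.001295) and rose by 0.38 ± 0.10 in subclone 4 (adjusted p = 0.009226). Hoxd8 was at 11.8, 15.19, 14.25 and 15.3 TPM in subclone 5, below all other subclone libraries, a lack of overlap found for 3.34% of all genes. It was at 19.27, 18.62, 17.56 and 19 TPM in subclone 1, at 17.04, 15.36, 15.38 and 16.3 in subclone 2, at 16.14, 16.06, 16.92 and 16.63 in subclone 3 and at 19.2, 19, 19.21 and 19.96 in subclone 4. Hoxd4 was at 3.16, 4.02, 3.32 and 4.41 TPM in subclone 1, at 2.97, 4.01, 3.57 and 3.07 in subclone 2, at 4.4, 1.91, 2.27 and 5.49 in subclone 3, at 4.02, 3.17, 3.22 and 4.06 in subclone 4 and at 2.31, 3.21, 2.2 and 2.67 in subclone 5. It did not pass among the subclones (adjusted p = 0.3408), and its widest spread was within subclone 3.

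Sums over a cluster are given here without a test, and those of HoxC and HoxD rest on few genes. Hoxc4 alone averaged 4.48 TPM in polyclonal cells, 1.82 in WT5 and 0.0425 in subclone 1. Hoxd4, Hoxd8 and Hoxd9 averaged 0.575, 6.9 and 1.7 TPM in polyclonal cells and 2.34, 16.0 and 6.38 in WT5. HoxC summed to 6.27 ± 0.399 TPM (SD, n = 4) in polyclonal cells, 2.19 ± 0.0793 in WT5, 0.155 ± 0.144 in subclone 1 and 0.933 to 1.6 on average in subclones 2 to 5. HoxD summed to 9.29 ± 0.832 TPM in polyclonal cells, 24.9 ± 0.54 in WT5 and 21.1 to 30.0 in the subclones. HoxA summed to 242 ± 14.1 TPM in polyclonal cells and 275 ± 6.67 in WT5, but with libraries scaled by their upper quartile these became 258 and 255, which turned the direction. HoxB summed to 440 ± 13.7 and 508 ± 14.7 TPM, or 468 and 472 with that scaling. Subclone 4 had the highest HoxA sum, 330 ± 7.17 TPM, against 265 to 288 in the other subclones.

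**Figure D5:**
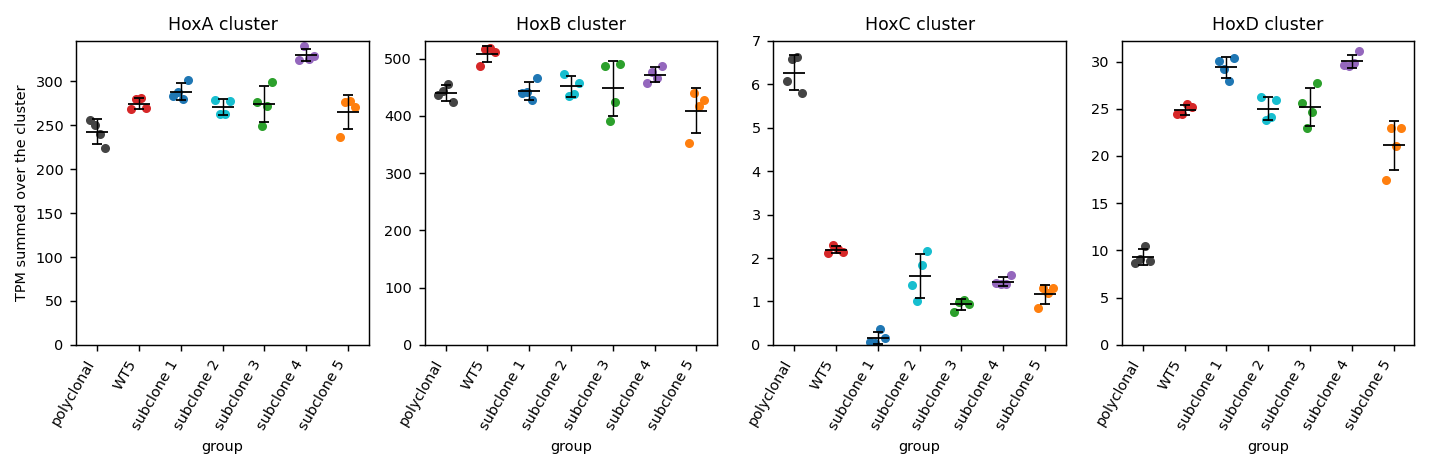
TPM summed over the genes of each Hox cluster in every library, by group, on axes that start at 0; points are libraries, and bars show the mean and SD of 4 libraries. The HoxC sum drops from 6.27 in polyclonal cells to 2.19 in WT5, both mostly Hoxc4, and to 0.155 in subclone 1. The HoxD sum, almost all from Hoxd4, Hoxd8 and Hoxd9, rises from 9.29 to 24.9 between polyclonal cells and WT5.

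Genes that work with or on Hox genes were looked at as lists of known function. Of 10 TALE homeodomain cofactors tested, which bind DNA together with Hox proteins, 3 were higher and 4 lower in WT5 than in polyclonal cells by adjusted p, with a median log2 difference of 0.06 before correction, compared with 0.24 over all genes. Meis3 was called by z-scores, at 0.66 to 1.52 TPM in polyclonal cells and 19.04 to 21.32 in WT5 (corrected log2 difference 4.04). Meis2 fell from a mean of 19.4 to 9.57 TPM and Pbx2 rose by 0.63 after correction. Among the subclones 1 of 10 differed, Meis2.

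Of 28 Polycomb subunits, 13 were higher and 2 lower in WT5 by adjusted p, with a median log2 difference of 0.39 before correction. After correction, 1 was higher and 1 lower by more than 1 on the log2 scale with an adjusted p below 0.01. Phf19, a PRC2 accessory subunit, was called by z-scores, at 0.15 to 0.42 TPM in polyclonal cells and 3.51 to 5.23 in WT5. Mtf2 and Cbx8 rose by 0.93 and 0.89 after correction. Rbbp4, a histone-binding subunit of PRC2, fell from a mean of 264 to 145 TPM, by 1.15 after correction, and was named after its values were seen. Among the subclones 6 of 28 differed, Phc1 most, with a mean of 24.9 TPM in subclone 4 and 38.2 to 42.3 in the others. Of 13 trithorax genes and H3K27 demethylases, 5 were higher and 4 lower in WT5, with a median of 0.13, the largest being Kmt2b and Kmt2a at 0.82 and 0.70 after correction. Among the subclones limma called 0 of these 13, with 2 at an unadjusted p below 0.05, a cutoff whose share of all genes was not computed.

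Of 9 genes of retinoic acid and Cdx signalling tested, 5 were higher and 3 lower in WT5, with a median of 0.48. Cyp26b1, which breaks down retinoic acid, was called by z-scores, at 0.03 to 0.21 TPM in polyclonal cells and 6.98 to 9.14 in WT5. Crabp2, which carries retinoic acid to its receptors, fell from a mean of 12.3 to 2.06 TPM, and Dhrs3, which turns retinaldehyde back to retinol, from 168 to 69.4. In the subclones Cyp26b1 averaged 1.76 to 3.36 TPM, below WT5 by adjusted p in all 5, and 6 of 11 genes differed among them.

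Of 7 non-coding transcripts of the Hox clusters tested, 1 was higher in WT5, Hoxa11os, and 1 lower, Hoxb3os, whose polyclonal libraries spread from 2.63 to 11.62 TPM, and the median was 0.19. Among the subclones 3 of 7 differed, with Hoxa11os and Hoxb5os highest in subclone 4. Of 19 genes that flank the clusters, 4 were higher and 9 lower in WT5, with a median of 0.12. Hnrnpa3, listed among the genes flanking HoxD, averaged 139 TPM in polyclonal cells and 900 in WT5, and Skap1, beside HoxB, 3.62 and 0.827. Among the subclones 4 of 20 flanking genes differed, and Skap1 was called by z-scores, with means of 2.4 TPM in subclone 1 and 3.02 in subclone 4 but 0.397 to 0.527 in the others. Snx10, on the 3′ side of HoxA, averaged 9.3 TPM in subclone 4 and 3.14 to 5.03 in the others. The shares of all genes passing were those given above, 65.5% for WT5 against polyclonal cells and 24.6% among the subclones. Of all genes, 34.5% were higher and 30.9% lower in WT5. The medians of all these lists were taken before correction, against 0.24 over all genes.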

How the data were processed

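RNA-seq of 28 mIMCD-3 libraries was analysed from the deposited tables. The authors called bases with CASAVA 1.8, aligned reads to GRCm38 with STAR 2.7.3a and estimated abundances with RSEM 1.3.1, per the labels and the methods, and deposited TPM, transcript abundances scaled for length and library size, in 2 tables, one for polyclonal cells and WT5 and one for the subclones. TPM sums to 1000000 in each library and keeps no depth, so no counting intervals are given. No pair of libraries held identical values. The study's z-score scale, log2(TPM) standardised within each library, was kept, on genes with TPM above 0 in every library of a fit. Its test was replaced by limma 3.58.1 (R 4.3.3; lmFit and eBayes, two-sided, Benjamini-Hochberg over all genes tested), and an unequal-variance test served as an alternative. A call needed an adjusted p below 0.01 and a z-score difference above 1. A z-score difference of 1 equalled a ratio of 8.56 for WT5 against polyclonal cells, 7.94 for subclones against WT5 and 8.23 among subclones. "By adjusted p" means on z-scores, while an SE and p beside a log2 difference come from a fit of log2(TPM). The 5 subclones were compared by moderated F test, and each with the mean of the other 4. The correction by each library's median was chosen after seeing the data.

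Alternatives were the log2 scale, pseudocounts of 1 and 0.1, a mean TPM of at least 1, a threshold of 0.05, a replicate block, 1 fit of all WT5 and subclone libraries, upper-quartile scaling of cluster sums and leaving out each library. On data simulated for 200 changed genes in 3 runs, limma recovered 98.7% of them for WT5 against polyclonal cells (13723 genes). There were 0 false calls. True and false calls alike needed a z-score difference above 1. Recovery of smaller differences, the size of most Hox differences here, was therefore not tested, and neither were false calls by adjusted p alone. Gene positions came from GENCODE M21, and promoters from RefSeq (GRCm38.p6). Python 3.11.15, pandas 2.3.3, numpy 2.4.6 and matplotlib 3.10.9 were used.

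The members and the lists (TALE cofactors, Polycomb subunits, trithorax genes and H3K27 demethylases, retinoic acid and Cdx regulators, non-coding Hox transcripts, flanking genes and markers) were chosen with earlier results of these data known. Values in every library are given for genes called in any comparison by z-score or by log2 difference and for the highest gene of each cluster, 13 in all, of which 1 is not reported here, though it stays in all counts and sums. Those of Hoxa11, Hoxc5 and Hoxd10 were added after their values were seen. From each list the genes called by z-score and at most 2 more, with the largest log2 differences among those passing, are named.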

Additional observations from a re-analysis of the deposited data

Results flagged for a closer look

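In 7 of 91 groups of 4 libraries, 1 library stood apart from the other 3 by Dixon's criterion at the 95% level, which flags some groups by chance alone. These were subclone 5 replicate 2 for Hoxa2 (6.07 TPM, the highest of its group), subclone 3 replicate 2 for Hoxa3 (9.6, lowest), WT5 replicate 4 for Hoxa10 (81.95, lowest), subclone 4 replicate 1 for Hoxc4 (0.96, lowest), subclone 3 replicate 4 for Hoxc9 (0.02, highest, the others being 0), WT5 replicate 3 for Hoxd8 (17.07, highest) and WT5 replicate 4 for Hoxd9 (7.1, highest).

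The 5 subclones differed by the moderated F test of limma for 10 Hox genes. The range between the highest and lowest mean z-score was 0.2242 for Hoxa2, 0.2191 for Hoxa6, 0.103 for Hoxa9, 0.1804 for Hoxa10 and 0.2704 for Hoxa11. It was 0.2189 for Hoxb4, 0.1505 for Hoxb7, 1.662 for Hoxc4, 0.1352 for Hoxd8 and 0.2123 for Hoxd9.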

How the results depend on the processing

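The single call of WT5 against polyclonal cells by z-score, Hoxc9, became 0 with the unequal-variance test, a pseudocount of 1, a pseudocount of 0.1 on all genes detected in some library, or a mean TPM of at least 1. There were 10 calls with a log2 difference above 1 and 7 with the correction, and 0 to 1 with 1 library left out. Subclone 1 against WT5 went from 1 to 0 with either pseudocount, and subclone 3 against WT5 from 0 to 2 on the log2 scale, with or without the correction. The call among the subclones became 0 with either pseudocount or a mean TPM of at least 1, which leaves Hoxc4 untested, and 2 on the log2 scale, or 1 with the correction. For subclone 1 against the other 4, it became 0 with the unequal-variance test (adjusted p = 0.01535), either pseudocount or that minimum. Subclones 2, 4 and 5 against the other 4 went from 0 to 1 on the log2 scale, with or without the correction. Where no value above shows it, the cause was not tested.

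No call of a named Hox gene changed direction in the settings run. Directions that did turn with scaling were those of Hoxb4, which was not called, and, for the HoxA and HoxB sums, the order of several pairs of groups, such as WT5 and polyclonal cells for HoxA, and WT5 and subclone 4 for HoxB (508 and 472 TPM, or 472 and 473 scaled). The order of no pair turned for HoxC or HoxD. Upper-quartile scaling moved 7 of the cluster sums by more than their SD. For single Hox genes, 26 values passed the threshold only under an alternative and 13 only in the fit as reported. With the replicate number as a block, the counts were 1 for WT5 against polyclonal cells, 1 for subclone 1 against WT5, 1 among the subclones, 1 for subclone 1 against the other 4, and 0 elsewhere, as without it. Deviations of same-numbered libraries correlated at -0.328 to 0.153, over 0.1 in 6 of 84 pairs, so the numbers did not pair the libraries.

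Read depth is unknown, so values of a few hundredths TPM, those of HoxC above all, have no known counting error. The 4 libraries of a group repeat 1 clone or pool, and 5 subclones of 1 clone do not describe clones in general.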
